A study of Mus musculus with 12 samples.

Results

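Most of the genes described here encode subunits of the proteasome or of its activators. They were taken by symbol, as every gene of the array named Psma, Psmb, Psmc, Psmd or Psme followed by a number. The rule used no measured difference, though it was set with earlier results of these data known. The rule gave 41 genes among 12393 on the array: 15 genes of the constitutive core particle, 20 of the regulatory particle, 3 of the immunoproteasome and 3 activators. The 20 hold every Psmc and Psmd gene by name, and not all of them encode subunits: Psmd10, for example, encodes an assembly chaperone. Each gene was read by its brightest probe set over the 12 arrays. Psma8, the testis form of a core subunit, had a mean intensity of 47.1, under the limit of 101 set for testing, so 40 of the 9154 genes tested were proteasome genes. Psmb8, with 3 group means between 103 and 114 and the S273A mean at 95.9, lay just inside that limit.

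Every group was made from PPARγ knockout mouse embryonic fibroblasts. PPARγ is the nuclear receptor at the head of the adipocyte programme, and the cells were differentiated for 6 days after a form of it had been put back. The groups were untreated cells with wild-type PPARγ, untreated cells with PPARγ carrying S273A (a serine at a phosphorylation site replaced by alanine), and wild-type cells given 1 µM rosiglitazone or 1 µM MRL24 for 24 h. Rosiglitazone is an antidiabetic full agonist, and MRL24 is a PPARγ ligand of another chemical class. Each group had 3 arrays, and the sample titles call the second group mutant where the series text names the substitution. Neither vehicle in the untreated cells nor separate cultures behind the arrays are stated in the labels, so p-values cover only the array-to-array spread within groups, and this spread may be technical. As far as the labels tell, each receptor form was present in 1 set of cells, so the substitution and any other difference between those cell populations cannot be told apart. An exact test of 3 arrays against 3 cannot give a p below 0.1, so tests were made with limma across all genes.

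The proteasome degrades proteins that carry ubiquitin chains. Its core particle is a barrel of stacked rings, in which the alpha subunits form the outer rings and gate the entrance, and the beta subunits form the inner rings that hold the proteolytic sites. The regulatory particle caps the barrel: its ATPases, the Psmc genes, unfold the substrate and open the gate, and most of its Psmd genes encode the scaffold, ubiquitin receptor, lid and deubiquitinating subunits. Immune cells, and other cells exposed to interferon gamma, replace the 3 catalytic beta subunits with immunoproteasome subunits that favour peptides for antigen presentation. In fat and other tissues the transcription factor NRF1 (gene Nfe2l1) raises proteasome genes together when degradation capacity falls short.

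Array medians lay between 297 and 315 intensity units. Untreated wild-type replicate 2 stood apart, with a score of 17.2 on the first principal component of all genes against -8.24 to 5.91 for the other arrays, and comparisons with wild-type are therefore also given without it. Pparg itself, whose probe set does not tell the receptor forms apart, differed from wild-type by 0.24 with S273A, -0.11 with rosiglitazone and -0.09 with MRL24 (limma adjusted p = 0.178, 0.545 and 0.627). Of the adipocyte markers, 9 of 11 were on the array, and Adipoq and Cidec lay below the limit for testing. Of the 7 tested, 1 was called higher with S273A (14.3%), 5 with rosiglitazone (71.4%) and 3 with MRL24 (42.9%). Over all genes tested 2.13%, 3.7% and 3.21% were called higher. The summed intensity of the 9 was 12964 to 14654 in wild-type, 13926 to 14653 in S273A, 32498 to 33075 with rosiglitazone and 20259 to 20595 with MRL24. The summed fibroblast markers, of which Lum lay below the limit, reached 86602 to 96765, 81290 to 87113, 89177 to 93532 and 94397 to 97741 in the same order. Single fibroblast markers moved more than that sum: 6 of 8 tested were called lower with S273A, which is 75% against 5.01% of all genes. Among them were Pdgfra by -0.64, Col1a2 by -0.38 and Col3a1 by -0.36 (limma adjusted p = 7.67e-06, 0.00139 and 4.76e-05). With rosiglitazone 2 of the 8 were called lower (25% against 4.19% of all genes) and with MRL24 1 (12.5% against 2.29%). In bulk RNA such as this, fewer cells of a type and less RNA per cell cannot be told apart. The part of these marker differences in the results on proteasome genes was not tested.

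Few proteasome genes passed the test (limma with Benjamini-Hochberg adjustment over all 9154 genes, adjusted p under 0.05). With S273A, 3 of the 40 changed, which is 7.5%, where 7.14% of all genes tested were called. Psmd8 rose, and Psmb5 and Psme4 fell, which is 1 gene up and 2 down where 2.13% of all genes rose and 5.01% fell. The fibroblast markers that fell in the same comparison are given above, and their part in these calls was not tested. With rosiglitazone none of the 40, read by their brightest probe sets, was called by limma, against 7.9% of all genes (3.7% higher and 4.19% lower). An unadjusted p under 0.05 was found for 4, or 10%, against 23% of all genes. With MRL24, 2 fell, Psma7 and Psmb4, which is 5% against 5.51% of all genes (3.21% higher and 2.29% lower). Between the ligands 1 differed, Psmd6, higher with rosiglitazone, which is 2.5% of the members and 2.5% of all genes (1.41% higher and 1.09% lower). Each of these shares was close to its background or below it. The 3 comparisons with untreated wild-type share those 3 arrays.

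**Figure D1:**
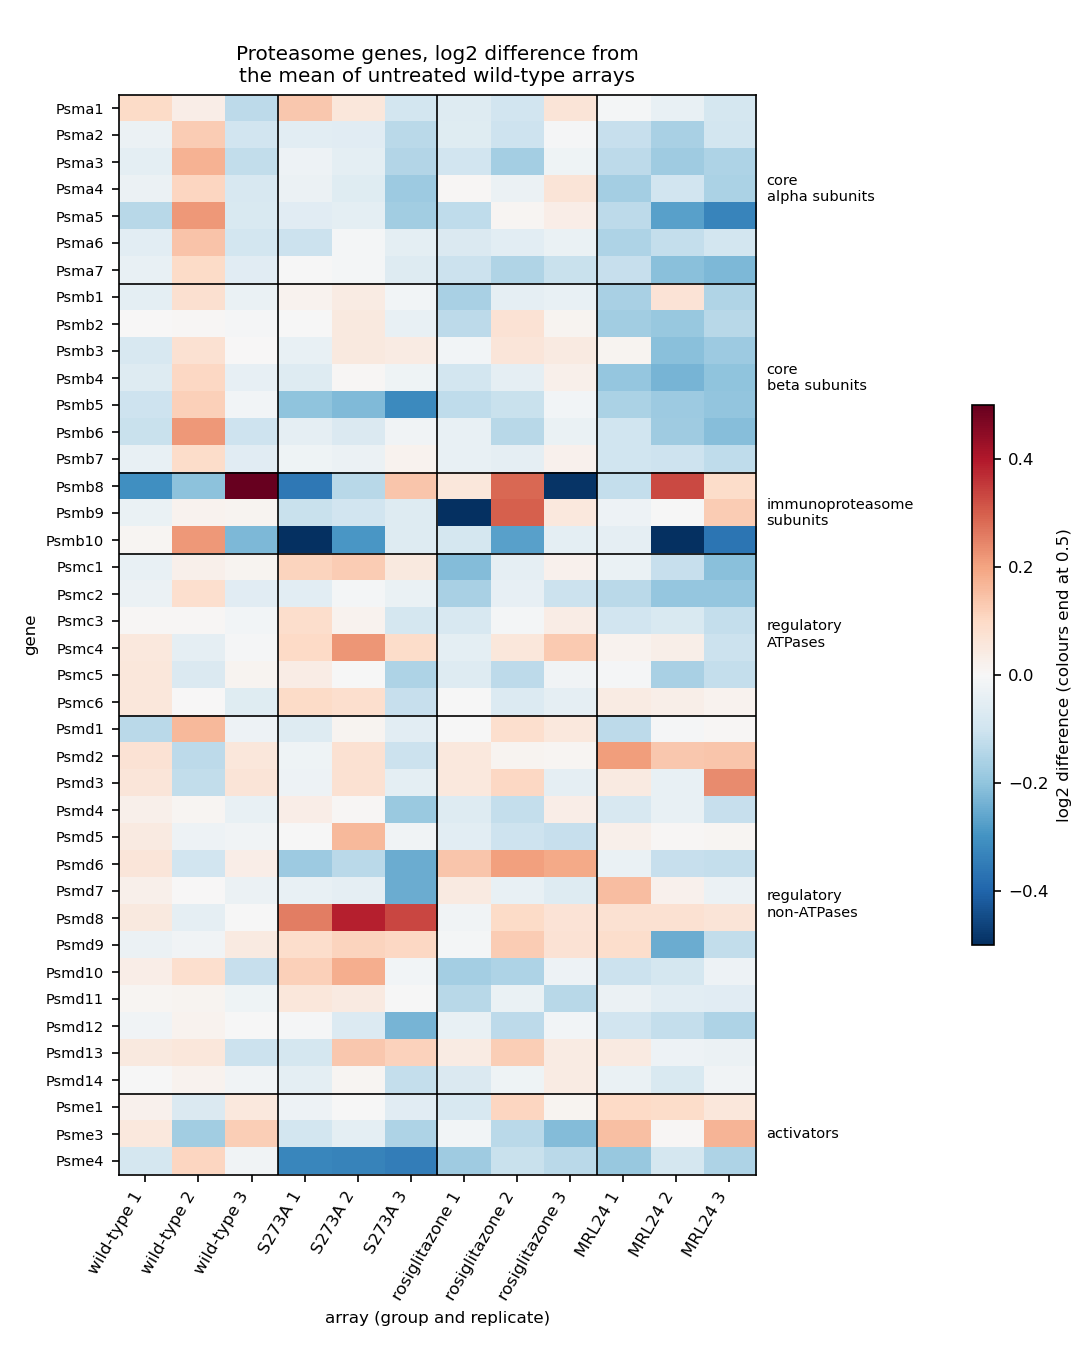
Each row is 1 of the 40 tested proteasome genes, in blocks by role, and each column 1 of the 12 arrays. The colour is the log2 difference from the mean of the untreated wild-type arrays. The core particle block is lower on the MRL24 arrays than on the rosiglitazone arrays, and Psmd8 is higher on the 3 S273A arrays.

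The changes were small, and the arrays measured them closely. The residual standard deviation of a member was 0.0748 at the median on the log2 scale, against 0.1003 over all genes tested, and the standard error of a change ranged from 0.0407 to 0.24. The 95% interval of the change lay within 1.5-fold in either direction for 38 of 40 members with S273A, 40 with rosiglitazone, 38 with MRL24 and 39 between the ligands. The exceptions were Psmb8 and Psmb10 with S273A, the same pair with MRL24, and Psmb8 between the ligands. The median change over the 40 was -0.03 with S273A, -0.04 with rosiglitazone, -0.09 with MRL24 and 0.06 for rosiglitazone over MRL24. Over all genes tested the medians were -0.0044, -0.0010, 0.01 and -0.02.

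**Figure D2:**
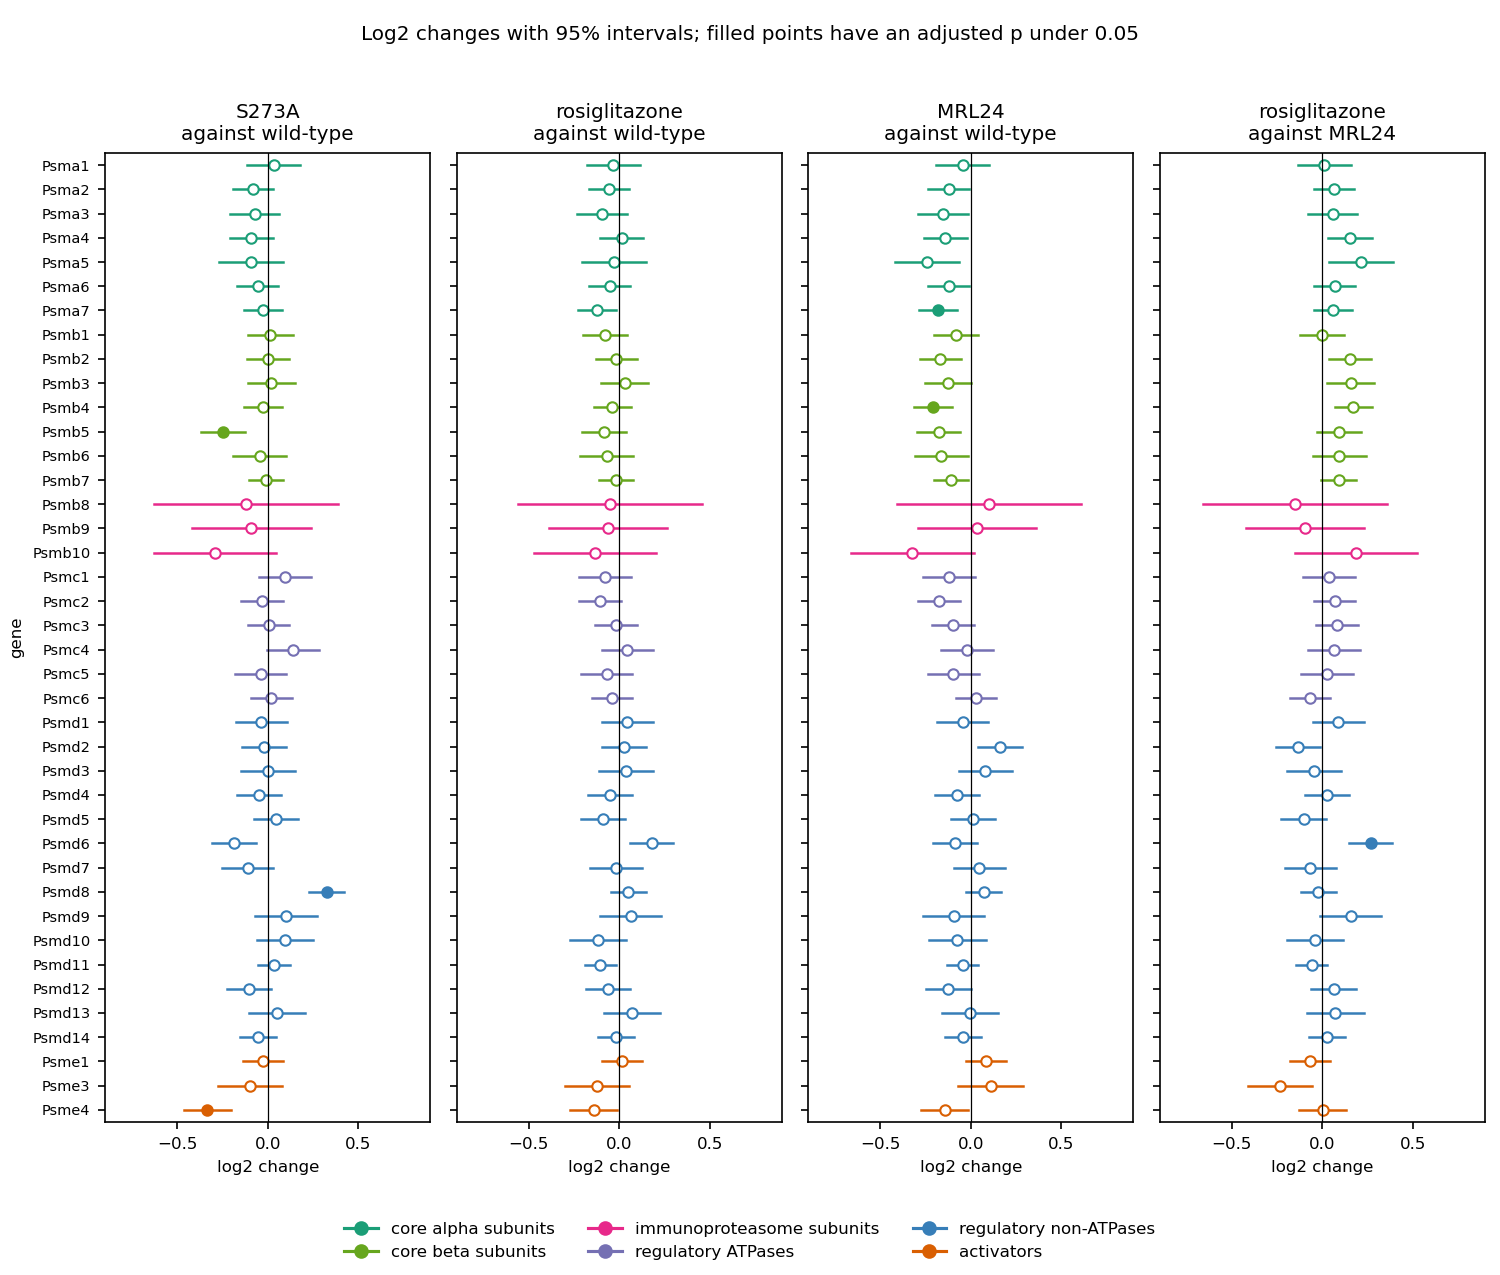
Log2 change of each of the 40 tested genes in the 4 comparisons, 1 panel each, with the 95% interval of the limma fit as a bar; filled points passed an adjusted p of 0.05. Filled points are Psmd8, Psmb5 and Psme4 with S273A, Psma7 and Psmb4 with MRL24, and Psmd6 between the ligands; the rosiglitazone panel has none.

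All 14 tested core particle genes had a lower mean with MRL24 than in untreated wild-type cells, where 46.9% of all genes tested did. Their median change was -0.15 and the range ran from -0.24 for Psma5 to -0.04 for Psma1. The 3 MRL24 arrays all lay below the 3 wild-type arrays for 8 of the 14, and for 14 of all 40 members, which is 35% where 13.7% of all genes tested did so. Of the 14, Psma7 and Psmb4 passed the test, both lower. That is 14.3%, where 5.51% of all genes tested were called and 2.29% were called lower. An unadjusted p under 0.05 was found for 11 of the 14, and for 24.5% of all genes tested. Without wild-type replicate 2 all 14 still had a lower mean with MRL24, the median change became -0.08, and neither call held. With the mean of all probe sets of a gene, 13 of the 14 had a lower mean with MRL24, and Psma1 changed by 0.16 (limma adjusted p = 0.472). The other probe sets of Psma1 were dim, with mean intensities of 129.7 and 19.3, and gave 0.09 and 0.42.

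The same 14 genes were all higher with rosiglitazone than with MRL24, a comparison that uses no untreated array. The median difference was 0.09, and 55.7% of all genes tested went the other way. The arrays of the ligands did not overlap for 7 of the 14, all higher with rosiglitazone, where 25.2% of all genes tested did not overlap and 10.8% were higher. None passed the adjusted threshold and 5 had an unadjusted p under 0.05, where 14.9% of all genes did. With quantile normalization 1 of the 14, Psmb1, was lower with rosiglitazone, and with the mean of all probe sets of a gene Psma1 and Psmb1 were. With S273A 10 of the 14 lay below wild-type and with rosiglitazone 12 did, where 51.3% and 50.3% of all genes tested did, and without wild-type replicate 2 these counts became 3 and 6. The 14 genes share their arrays, so their number is not a number of independent observations.

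Array by array, the median deviation of the core particle genes from their mean over the 12 arrays was 0.01, 0.17 and -0.01 in wild-type and 0.02, 0.05 and 0.01 with S273A. It was -0.02, -0.0017 and 0.06 with rosiglitazone, and -0.05, -0.10 and -0.10 with MRL24. The 3 MRL24 arrays were thus the lowest of the 12, and wild-type replicate 2 the highest. Over all genes tested the same median stayed between -0.01 and 0.03. For the 20 regulatory particle genes the lowest value was -0.05, on an S273A array and on MRL24 arrays alike. The MRL24 arrays (-0.0048, -0.0484 and -0.0527) lay below the wild-type arrays (0.0368, 0.0249 and 0.0095) here too. The S273A and rosiglitazone arrays overlapped both.

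**Figure D3:**
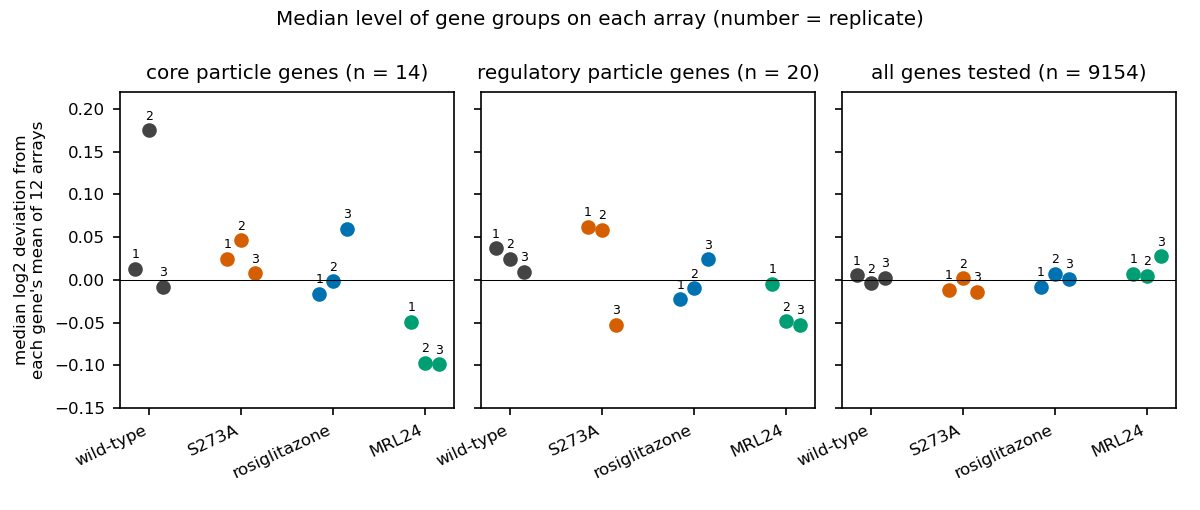
Median deviation on the log2 scale from the mean of the 12 arrays, by array, for 14 core particle genes, 20 regulatory particle genes and all 9154 genes tested. The core particle points of the MRL24 arrays (-0.05, -0.10 and -0.10) are the lowest and wild-type replicate 2 (0.17) the highest, and the points for all genes stay near 0.

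Correlation among the members within groups was highest for core particle genes on the full set of arrays. The median correlation of their deviations from the group means was 0.598 over 91 pairs of core genes and 12 arrays, and 0.274 over 190 pairs of regulatory particle genes. It was 0.142 for core with regulatory genes, and 0.01 over all pairs of genes tested. Without wild-type replicate 2 the median for core pairs was 0.206, that for regulatory pairs 0.309 and that for core with regulatory genes 0.255. All pairs share the same arrays and their scaling, and the values are a description.

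Promoter sequence was available for 34 of the 41 genes, as windows from 250 bases before to 50 bases after the annotated start (RefSeq, GRCm38.p6). Windows were searched on both strands. CCAAT, the letters of the NF-Y box, stood in 6 of 11 core particle windows (54.5%), in 5 of 17 regulatory particle windows (29.4%) and in 41.1% of all genes. The core genes with it were Psma1, Psma2, Psma3, Psma6, Psma7 and Psmb3. As examples, a stretch of 4 of them is shown, with CCAAT in capitals and 1 match from each window. They lie at chr7:114276190-114276234 on the minus strand, and at chr13:14613168-14613212, chr12:55384173-55384217 and chr11:97703371-97703415 on the plus strand.
Psma1: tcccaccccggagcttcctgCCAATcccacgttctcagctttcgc
Psma2: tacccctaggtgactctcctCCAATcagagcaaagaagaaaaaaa
Psma6: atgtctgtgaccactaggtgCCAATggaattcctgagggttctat
Psmb3: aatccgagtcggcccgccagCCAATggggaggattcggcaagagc
Over all 6 core genes with the letters the change with MRL24 ran from -0.18 for Psma7 to -0.04 for Psma1, and over the core genes whose windows lack them from -0.24 for Psma5 to -0.14 for Psma4, so the ranges overlapped. A match describes letters in a window and is not a bound site.

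Psmb4 is a structural beta subunit needed to complete the core ring. Its gene lies on chr3:94884324-94886958 (GRCm38.p6). It read 4021, 4520 and 4092 in wild-type, 4021, 4226 and 4141 with S273A, 3946, 4072 and 4278 with rosiglitazone, and 3677, 3578 and 3653 with MRL24. The 3 MRL24 arrays were the lowest of the 12, and the other groups overlapped. The fall with MRL24 was -0.21 on the log2 scale (SE 0.0487, limma adjusted p = 0.0243), from 4211 ± 270 to 3636 ± 52.0 (SD, n = 3). A second probe set gave -0.17. The call held under 16 of 22 alternatives and was lost, among others, without wild-type replicate 2 (adjusted p = 0.0773) or without any 1 of the MRL24 arrays (0.0621 to 0.0939). Rosiglitazone over MRL24 was 0.17 (adjusted p = 0.0803).

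Psma7, an alpha subunit of the outer ring, lies on chr2:180036367-180042464. It read 3264, 3581 and 3224 in wild-type, 3347, 3326 and 3205 with S273A, 3114, 3021 and 3104 with rosiglitazone, and 3096, 2900 and 2865 with MRL24. Both ligand groups lay wholly below wild-type and overlapped each other. The change was -0.18 with MRL24 (SE 0.0491, limma adjusted p = 0.0418) and -0.12 with rosiglitazone (adjusted p = 0.146). A second probe set gave -0.12 with MRL24. The MRL24 call held under only 8 of 22 alternatives, with adjusted p from 0.0234 to 0.160 (0.147 without wild-type replicate 2). Of the other alpha subunits, Psma5 had the lowest change with MRL24 (-0.24, limma adjusted p = 0.0893), and its difference between the ligands was 0.21 (0.217). Psma1 was the least changed with MRL24, at -0.04 (limma adjusted p = 0.740), and Psma4 the highest with rosiglitazone, at 0.01 (0.922).

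**Figure D4:**
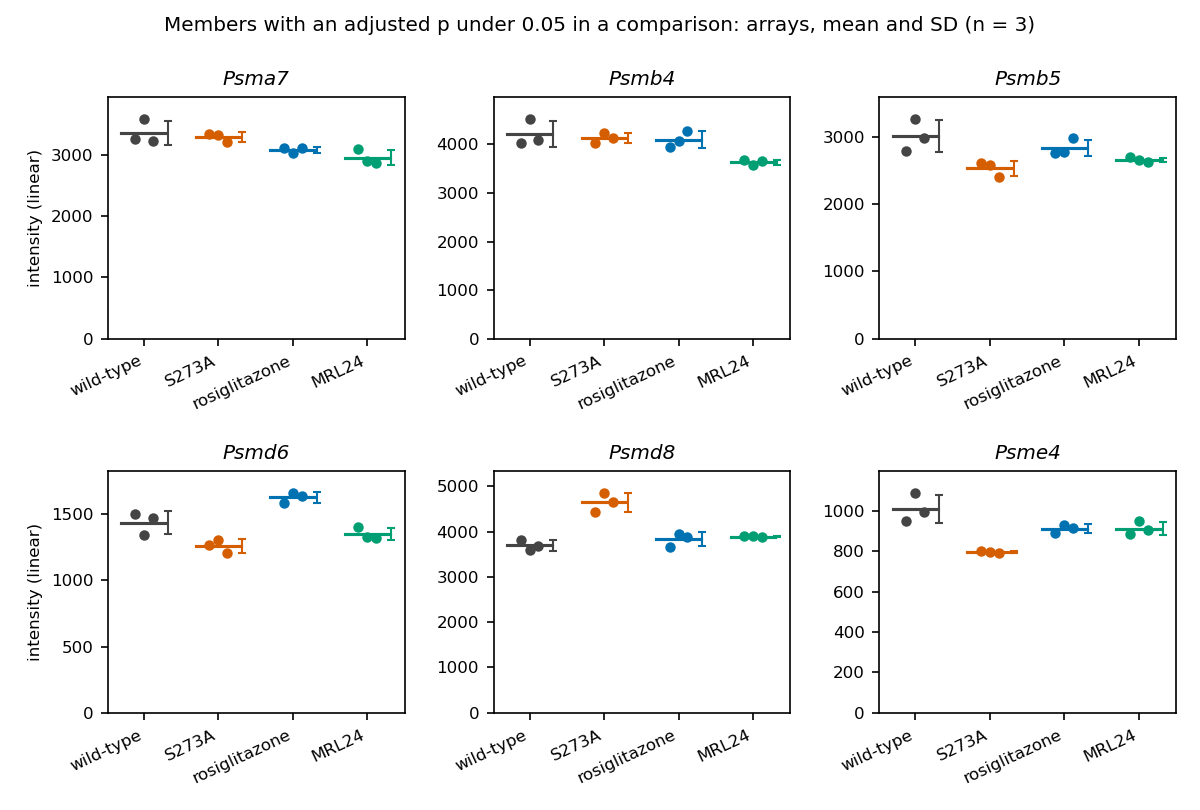
Intensity on each array is shown (points) for the 6 proteasome genes called in any comparison. Bars give the mean and SD of the 3 arrays of a group, and the axes start at 0. Psmd8 reads 4421 to 4843 with S273A against 3583 to 3820 in wild-type, Psme4 790 to 802 against 949 to 1087, and Psmd6 1583 to 1658 with rosiglitazone against 1322 to 1403 with MRL24.

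The catalytic beta subunits Psmb5, Psmb6 and Psmb7 carry the chymotrypsin-like, caspase-like and trypsin-like activities. Psmb5, on chr14:54614120-54617995, read 2789, 3259 and 2975 in wild-type, 2612, 2571 and 2402 with S273A, 2751, 2777 and 2973 with rosiglitazone, and 2691, 2646 and 2618 with MRL24. All S273A arrays lay below all wild-type arrays. The fall with S273A was -0.25 (SE 0.0569, limma adjusted p = 0.0139), from 3008 ± 236 to 2528 ± 111 (SD, n = 3), which is 1.19-fold. It held under 20 of 22 alternatives, with an adjusted p of 0.0394 without wild-type replicate 2, and was lost without S273A replicate 3 (0.0715) and in a fit of the 6 arrays alone (0.0895). Psmb5 has a single probe set, so the mean of probe sets was the same reading. With MRL24 the change of Psmb5 was -0.18 (adjusted p = 0.0746), and no MRL24 array overlapped wild-type. With rosiglitazone it was -0.08 (adjusted p = 0.411).

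TGACNNNGC, the core of the antioxidant response element that NRF1 and NRF2 bind, stood in 6 of 34 windows (17.6%), those of Psmb5, Psmb6, Psmc6, Psmd9, Psmd12 and Psme4, and in 14% of 27025 genes. The stretch of Psmb5 is shown because Psmb5 was the catalytic subunit that fell with S273A. It lies on the minus strand at chr14:54618014-54618062, and the capitals mark the motif, 47 to 39 bases before the start.
Psmb5: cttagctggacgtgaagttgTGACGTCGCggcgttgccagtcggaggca

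Psmb6 read 4814, 6035 and 4832 in wild-type, and every other array lay between 4484 and 5129. Its wild-type replicate 2 was thus the highest of all 12 arrays, and its changes were -0.05 with S273A, -0.07 with rosiglitazone and -0.16 with MRL24 (limma adjusted p = 0.772, 0.595 and 0.158). Psmb7 read 3888 to 4309 in wild-type, 3956 to 4094 with S273A, 3920 to 4098 with rosiglitazone and 3698 to 3770 with MRL24. The MRL24 arrays of Psmb7 lay below all others, with a change of -0.11 (limma adjusted p = 0.144). Among the structural beta subunits Psmb3 had the highest change with S273A and with rosiglitazone, at 0.02 and 0.03 (adjusted p = 0.906 and 0.813), and Psmb1 the change nearest 0 with MRL24, at -0.08 (0.406).

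The immunoproteasome subunits Psmb8, Psmb9 and Psmb10 take the places of Psmb5, Psmb6 and Psmb7. None of the 3 passed the test in any of the 4 comparisons. Psmb8 read 81.4, 88.4 and 155 in wild-type, 77.9, 93.2 and 117 with S273A, 109, 131 and 69.6 with rosiglitazone, and 94.8, 135 and 112 with MRL24. All 4 groups overlapped, and with a standard error of 0.24 the 95% interval of the S273A change ran from -0.63 to 0.39. Psmb9 read 225, 233 and 232 in wild-type, 212, 214 and 219 with S273A, 154, 286 and 239 with rosiglitazone, and 226, 230 and 252 with MRL24. The S273A arrays of Psmb9 were all below wild-type, by -0.09 (limma adjusted p = 0.801), and the rosiglitazone arrays spread across both.

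Psmb10 read 202, 236 and 169 in wild-type, 135, 161 and 191 with S273A, 188, 164 and 194 with rosiglitazone, and 194, 132 and 152 with MRL24. Its groups overlapped throughout, with changes of -0.29 (limma adjusted p = 0.317) with S273A and -0.32 (0.224) with MRL24. The 95% interval with S273A, -0.63 to 0.05, still held falls of more than 1.5-fold. Leukocytes make these subunits constitutively, and 6 of 12 macrophage and leukocyte markers lay below the limit for testing: Ptprc, Lyz2, Itgam, Cd52, Tyrobp and Fcer1g. Ptprc, the defining leukocyte surface marker, had a mean of 48.5 in wild-type and 44.0 with S273A. The other 6, Adgre1, Csf1r, Cd68, Cd14, Laptm5 and Cd53, lay above the limit, with wild-type means from 213 for Adgre1 to 1587 for Csf1r. The 12 markers summed to 3856 to 4392 in wild-type, 4531 to 4647 with S273A, 3847 to 4218 with rosiglitazone and 3975 to 4122 with MRL24. The S273A arrays were the highest in that sum. Cd68 rose with S273A from 557 ± 37.0 to 870 ± 11.4 (SD, n = 3), by 0.63 (limma adjusted p = 4.76e-05). Csf1r changed by 0.19, Cd14 by 0.15, Adgre1 by 0.12, Cd53 by -0.15 and Laptm5 by -0.17, none of which passed. The part of these markers in the immunoproteasome values was not tested.

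For the immunoproteasome, the interferon-stimulated core GAAANNGAA was in none of the 3 windows. It was in 6 of the 34 (17.6%), those of Psmb3, Psmb4, Psmc2, Psmd4, Psmd9 and Psme1, and in 9.76% of all genes. TTCNNNGAA, the letters of a STAT site, stood in 2 of 34 windows (5.88%), those of Psmb8 and Psmd2, and in 9.55% of all genes. The Psmb8 stretch, on the plus strand at chr17:34198078-34198126, is shown as the 1 immunoproteasome window that holds it, with the motif in capitals.
Psmb8: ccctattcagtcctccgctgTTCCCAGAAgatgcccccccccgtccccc

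**Figure D5:**
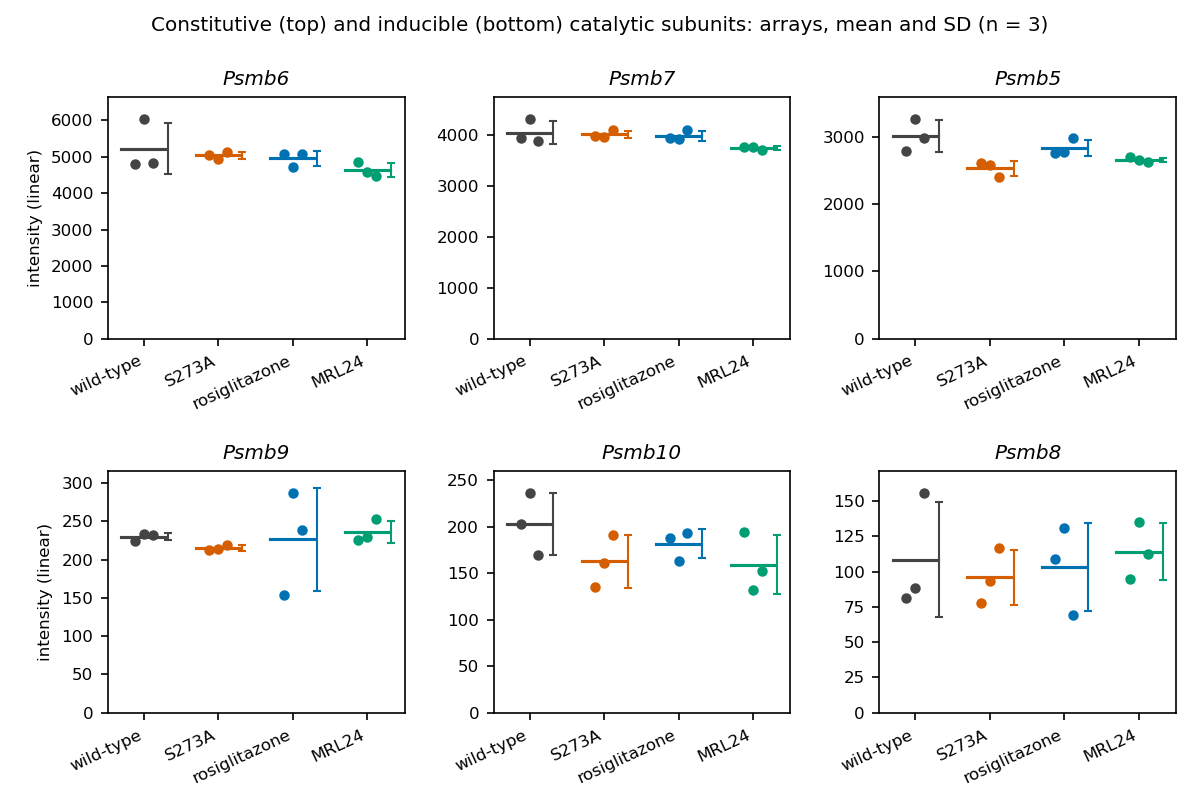
Intensity on each array for the catalytic beta subunits Psmb6, Psmb7 and Psmb5 (top) and the immunoproteasome subunits that replace them, Psmb9, Psmb10 and Psmb8 (bottom), with the mean and SD of 3 arrays. Psmb5 is lower on the S273A arrays (2402 to 2612) than in wild-type (2789 to 3259), and the immunoproteasome arrays spread widely at low intensity, Psmb8 between 69.6 and 155.

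In the regulatory particle Psmd8 gave the firmest difference. It encodes RPN12, a lid subunit that joins last in lid assembly, from chr7:29174187-29180673. It read 3820, 3583 and 3688 in wild-type, 4421, 4843 and 4658 with S273A, 3654, 3951 and 3879 with rosiglitazone, and 3894, 3899 and 3871 with MRL24. Every S273A array was above every array of the other groups. The rise with S273A was 0.33 (SE 0.0456, limma adjusted p = 0.000398), from 3697 ± 119 to 4641 ± 212 (SD, n = 3), which is 1.25-fold. It held under all 22 alternatives, with adjusted p from 0.000132 to 0.0112. Psmd8 has a single probe set, so the mean of probe sets was the same reading. Leaving out an array of either ligand could not move the change, only its p. The gene ranked 502 of 9154 by size of change with S273A. With rosiglitazone its change was 0.05 and with MRL24 0.07 (adjusted p = 0.564 and 0.343).

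Psmd6 encodes RPN7, another lid subunit, from chr14:14112185-14120945. It read 1499, 1342 and 1470 in wild-type, 1265, 1307 and 1207 with S273A, 1583, 1658 and 1640 with rosiglitazone, and 1403, 1325 and 1322 with MRL24. The rosiglitazone arrays were the highest 3 and the S273A arrays the lowest 3 of the 12. Rosiglitazone exceeded MRL24 by 0.27 (SE 0.0567, limma adjusted p = 0.0182, 95% interval 0.15 to 0.39) and a second probe set gave 0.15. That call held under 17 of 22 alternatives and was lost with the mean of both probe sets (adjusted p = 0.0508) and without rosiglitazone replicate 2 or 3 or MRL24 replicate 2 or 3 (0.0820 to 0.0973). Against wild-type Psmd6 changed by -0.19 with S273A (adjusted p = 0.0580) and by 0.18 with rosiglitazone (0.0659), neither of which passed.

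Of the other regulatory particle genes none was called. Among the 6 ATPases Psmc4 had the highest change with S273A, 0.14 (limma adjusted p = 0.256), and its S273A arrays all lay above wild-type. The other probe set of Psmc4 gave -0.04 with S273A. Psmc2 had the lowest change with rosiglitazone, -0.11 (0.258), and with MRL24, -0.17 (0.0680). The other probe set of Psmc2 gave 0.03 for both ligands, and the brighter probe set is of a type that may also bind other transcripts. Among the non-ATPases Psmd2, a scaffold subunit of the base, had the highest change with MRL24, 0.16 (adjusted p = 0.103), and the lowest between the ligands, -0.13 (0.274). Psmd12, a lid subunit, had the lowest change with MRL24, -0.12 (0.202), and Psmd10, the assembly chaperone gankyrin, the lowest with rosiglitazone, -0.12 (0.377). The brightest probe set of Psmd11 gave -0.10 with rosiglitazone (limma adjusted p = 0.135). Its other probe sets above the limit, which were not tested singly, gave -0.32, -0.15, 0.13 and -0.10. The median over the 20 genes was 0.0023 with S273A, -0.02 with rosiglitazone and -0.05 with MRL24.

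Of the 9 members whose arrays did not overlap between S273A and wild-type, 4 were higher and 5 lower. That is 22.5% of the 40, where 22.6% of all genes tested did not overlap (9.13% higher and 13.4% lower). With rosiglitazone there were 5, or 12.5% against 25.5%, and with MRL24 17, or 42.5% against 29.1%. Between the ligands there were 12, or 30% against 25.2%.

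The activators open the gate of the core particle without ATP. Psme4 encodes PA200, a large nuclear activator linked to histone turnover, from chr11:30771775-30881150. It read 949, 1087 and 995 in wild-type, 802, 797 and 790 with S273A, 891, 932 and 916 with rosiglitazone, and 884, 948 and 905 with MRL24. The S273A arrays were the lowest 3 and the wild-type arrays the highest 3, with both ligand groups between them. The fall with S273A was -0.33 (SE 0.0607, limma adjusted p = 0.00298), from 1010 ± 70.6 to 797 ± 6.34 (SD, n = 3), which is 1.26-fold. It held under all 22 alternatives, with adjusted p from 0.00212 to 0.0369. The other probe sets gave smaller falls, -0.18 and -0.16, and the mean of all its probe sets gave -0.22 (limma adjusted p = 0.0219). With the ligands Psme4 changed by -0.14 each (adjusted p = 0.174 with rosiglitazone and 0.160 with MRL24), and neither passed. Its other probe sets gave -0.02 and 0.16 with rosiglitazone, and -0.11 and -0.0011 with MRL24.

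Psme1 encodes an interferon-inducible subunit of the PA28 ring that accompanies the immunoproteasome. It read 2455 to 2681 in wild-type, 2485 to 2578 with S273A, 2441 to 2784 with rosiglitazone and 2686 to 2771 with MRL24. The MRL24 arrays were above all wild-type arrays, by 0.08 (limma adjusted p = 0.344). Psme3, the nuclear PA28γ, read 557 to 688 in wild-type, 566 to 609 with S273A, 540 to 624 with rosiglitazone and 634 to 712 with MRL24. Its difference between the ligands was -0.23 (limma adjusted p = 0.179), and a second probe set gave 0.01. Psme2, the partner of Psme1, shares its probe set with another symbol and was not read here.

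Genes around the proteasome were read as lists. Of the assembly and accessory factors, 16 of 18 were tested, and with S273A 1 rose and 1 fell, which is 12.5% against 7.14% of all genes, while the other comparisons had no call. Ubqln2, a shuttle factor that carries ubiquitinated proteins to the proteasome, fell from 2218 ± 98.5 to 1786 ± 28.6 (SD, n = 3), a change of -0.31 (limma adjusted p = 0.00366). With the mean of its probe sets the change was -0.13 and the call was lost. Zfand5, a proteasome-binding zinc finger protein, rose by 0.17 (limma adjusted p = 0.0422), a call that held under 8 of 22 alternatives, with a change of 0.02 under the mean of its probe sets.

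Of the genes for ubiquitin and its activating and conjugating enzymes, 7 of 14 were tested. Ube2d3, a conjugating enzyme, was the single call in each comparison with wild-type, which is 14.3% of the list against 7.14%, 7.9% and 5.51% of all genes. Its intensity was 7072 ± 322 in wild-type, 8400 ± 497 with S273A, 8071 ± 574 with rosiglitazone and 8214 ± 134 with MRL24 (SD, n = 3). The changes were 0.25, 0.19 and 0.22 (limma adjusted p = 0.00962, 0.0383 and 0.0313), and they held under 20, 11 and 15 of 22 alternatives. With the mean of all its probe sets the changes were 0.08, -0.0023 and 0.11.

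Of the regulators of proteasome genes, 13 of 14 were tested. With S273A 1 was called (7.69% against 7.14% of all genes), with rosiglitazone 2 (15.4% against 7.9%) and with MRL24 1 (7.69% against 5.51%). Nfe2l1, which encodes NRF1, was not called, with changes of -0.10, -0.03 and 0.07 with S273A, rosiglitazone and MRL24 (limma adjusted p = 0.448, 0.851 and 0.538). Vcp, the segregase that frees NRF1 from the endoplasmic reticulum, fell with S273A by -0.19 (adjusted p = 0.0171), which held under 19 of 22 alternatives. With the mean of its probe sets the Vcp change was -0.05 (adjusted p = 0.734). Nfe2l2, which encodes NRF2, fell with rosiglitazone by -0.20 (adjusted p = 0.0142, 20 of 22). Mafg, a small partner of NRF1 and NRF2, rose with rosiglitazone from 1341 ± 163 to 1833 ± 40.5 (SD, n = 3), by 0.45 (limma adjusted p = 0.000847), under all 22 alternatives. It rose with MRL24 by 0.43 (adjusted p = 0.00709), under 21 of 22. With the mean of its probe sets the Mafg changes were 0.22 and 0.26, and both calls held.

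In antigen presentation, 9 of 12 listed genes were tested and none was called with S273A. With rosiglitazone 3 of the 9 were called (33.3% against 7.9% of all genes) and with MRL24 2 (22.2% against 5.51%). Tapbp, the peptide-loading chaperone tapasin, fell with rosiglitazone by -0.24 and with MRL24 by -0.30 (limma adjusted p = 0.0239 and 0.0139). With the mean of all its probe sets the changes of Tapbp were -0.05 and 0.0072. Calr, which encodes the chaperone calreticulin, rose by 0.20 and 0.26 (adjusted p = 0.0371 and 0.0175), held under 10 and 16 of 22 alternatives. Canx, which encodes calnexin, fell with rosiglitazone by -0.13 (adjusted p = 0.0184), and by -0.08 without a call under the mean of its probe sets. Of the interferon regulators, 11 of 12 were tested, and 1 was called with each ligand, which is 9.09% against 7.9% and 5.51% of all genes. Ifnar2, a type I interferon receptor chain, fell with rosiglitazone by -0.21 (limma adjusted p = 0.00412). That call held under 21 of 22 alternatives and was lost with the mean of its probe sets (adjusted p = 0.117). Jak2 rose with MRL24 by 0.29 (adjusted p = 0.0467), a call that held under 5 of 22 alternatives, with a change of 0.07 under the mean of its probe sets.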

How the data were processed

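The authors deposited 1 intensity on a linear scale for each of 22690 probe sets and 12 arrays; the normalization and its software are not given in the sources used here. Of these, 64 were controls, 20380 carried 1 gene symbol, 691 several and 1555 none. Each gene took its brightest probe set by mean over the arrays; 19 of the 41 proteasome genes had several. Genes with a mean under the 30th percentile of probe sets, an intensity of 101, were not tested. Values were used as log2(value + 16), which understates changes of dim genes; mean ± SD are of intensities.

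The 4 groups were compared by limma (version 3.58.1, with R 4.3.3; lmFit and trended eBayes) in a single fit with 8 residual and 7.67 prior degrees of freedom, and p-values were adjusted by Benjamini-Hochberg over all genes tested. The fit was tested on simulated data. Sequences and figures used python 3.11.15, numpy 2.4.6, pandas 2.3.3 and matplotlib 3.10.9. Named were called members, the catalytic, immunoproteasome and activator genes, the extremes of each subgroup, and called genes of the surrounding lists. Psmd11 was named for its other probe sets, after seeing the data. The members, lists and rules were chosen with earlier results of these data known. The 22 alternatives were pseudocounts of 1 and 64, no filter, other scalings, the mean of probe sets, array weights, other fits and each array left out. The mean gave every probe set of a gene the same weight, also those under the limit. The core particle counts under other scalings and without wild-type replicate 2 were chosen after seeing the data. Protein sequences and the place of probes in their genes were not analysed here.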

Additional observations from a re-analysis of the deposited data

How the results depend on the processing

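Each fit was repeated under 22 alternatives, 12 of them without 1 array. With S273A 2 to 4 members were called, and with rosiglitazone none under any of the 22. With MRL24 the count of 2 became 1 with no filter and with array weights, 5 with median scaling of the arrays, 0 with the mean of all probe sets or in a fit of the 6 arrays alone, and 0 to 4 without 1 array. It was 0 without wild-type replicate 2 or any 1 MRL24 array, and 4 without wild-type replicate 1. Between the ligands the count of 1 became 2 with quantile normalization, 0 with the mean of all probe sets, 4 with array weights, 3 in a fit of the 6 arrays alone and 0 to 2 without 1 array. The median member change with MRL24 moved from -0.09 to -0.1353 with median scaling and -0.0524 with the mean of probe sets, and lay between -0.1019 and -0.0572 without 1 array. That with S273A lay between -0.0426 and 0.0121, above 0 only without wild-type replicate 2. Calls over all genes with MRL24 fell from 504 to 157 without that array and to 51 in the fit of 6 arrays. Of the other genes, Ube2d3 with rosiglitazone (-0.0023) and Tapbp with MRL24 (0.0072) changed sign with the mean of all probe sets. The causes were not tested.

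With the replicate number as a block, 3, 0, 1 and 1 members were called with S273A, rosiglitazone, MRL24 and between the ligands, against 3, 0, 2 and 1 without it. Arrays with the same number had residual correlations of -0.093 to 0.094, and 3 of 12 correlated best with their own number in another group, so the numbers were not taken to pair the arrays. The number of arrays limits precision, and dim probe sets, such as those of Psmb8, Psmb9 and Psmb10, have the widest intervals.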
